A study of Chlamydomonas reinhardtii with 9 samples.

Results

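Peaks on the organelle genomes of the green alga Chlamydomonas reinhardtii are described here, that is every peak on the sequences named plastome and mitogenome in 6 peak lists. These were 297 plastome peaks and 31 mitogenome peaks, together 328 of 117666. The series asked where the proteins PAF1 and SKIP sit on the genome, by precipitating cross-linked chromatin through an HA epitope tag with a matching antibody and sequencing the recovered DNA (ChIP-seq). Per the labels, 3 libraries came from a line labelled paf1 and 3 from a line labelled skip, as a genotype or, for replicate 3, as a cell type, all in the strain CC5325, and the design text calls these lines CrPAF1-HA and CrSKIP-HA. PAF1-HA and SKIP-HA stand for them below. Whether the lines also carry a mutation in these genes, which promoter drives the tagged proteins and whether each line is 1 clone cannot be told from the sources used. The 3 wild-type libraries of the series are not analysed here, and all values therefore lack a background from cells without the tag. Separate cultures for the replicates are not stated in the labels, so p-values measure the spread between libraries only, which may be technical.

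PAF1 gives its name to an elongation complex of RNA polymerase II, the enzyme that transcribes protein-coding genes of the nucleus. SKIP, a conserved nuclear protein, is known from the splicing and transcription of nuclear genes. The chloroplast of this alga has its own genome, the plastome, present in many copies per cell and drawn as a circle. A pair of large inverted repeats, which hold the ribosomal RNA genes and the photosystem gene psbA, divides that circle into single-copy parts of similar size, and it is transcribed by a bacterial-type RNA polymerase. The mitochondrial genome is a short linear molecule with inverted repeats at its ends. It holds a few genes of the respiratory chain and ribosomal RNA genes in pieces, and it is transcribed by a polymerase related to those of phages.

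Each list holds the start and end of every peak, with no score, and nearly all peaks were 400 bp wide. Positions are 1-based in the files' own build, which the sources used here do not name. The lists held 16329 to 17645 peaks for PAF1-HA, against 19709 to 24680 for SKIP-HA. Their read depth is unknown. The labels describe replicates 1 and 2 with one set of fields and replicate 3 with another. No genome or organelle annotation of this build was used here, so the positions of the inverted repeats, the genes under the peaks and the base sequence were not analysed.

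Both proteins gave similar numbers of organelle peaks, although the SKIP-HA lists were longer. PAF1-HA libraries had 53, 45 and 55 plastome peaks in replicates 1, 2 and 3, and SKIP-HA libraries had 50, 57 and 37. The groups overlapped, with the lowest number in SKIP-HA replicate 3, which had the longest list of all. The mean was 51.0 ± 5.29 in PAF1-HA libraries and 48.0 ± 10.1 in SKIP-HA libraries (SD, n = 3 each). Mitogenome peaks numbered 6, 5 and 4 in PAF1-HA libraries and 5, 5 and 6 in SKIP-HA libraries.

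As a share of the library, plastome peaks made up 0.325%, 0.265% and 0.312% of all peaks in PAF1-HA libraries and 0.254%, 0.256% and 0.150% in SKIP-HA libraries. All 3 PAF1-HA shares were above all 3 SKIP-HA shares. The difference was 0.0806 percentage points (PAF1-HA minus SKIP-HA), and the exact permutation test, two-sided, gave p = 0.1, which 3 against 3 libraries cannot go below. It was 0.0457 percentage points without SKIP-HA replicate 3 and 0.0400 with replicates 1 and 2 only. The 95% Wilson intervals, which cover counting error only, ran from 0.109% to 0.207% for the lowest share, in SKIP-HA replicate 3, and from 0.248% to 0.424% for the highest, in PAF1-HA replicate 1. Mitogenome shares were 0.0296% ± 0.00704 in PAF1-HA libraries and 0.0240% ± 0.00150 in SKIP-HA libraries (SD, n = 3, two-sided exact permutation p = 0.3). Their difference of 0.00558 percentage points was 0.00201 without PAF1-HA replicate 1, 0.00905 without PAF1-HA replicate 3 and 0.00919 with replicates 1 and 2 only.

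A fit over all 100 kb windows of the genome, with 3 organelle windows among 1073, called none of these 3. Limma called 0.559% of the 1073 windows at an adjusted p under 0.05. At an unadjusted p under 0.05 it found 1 of the 3 organelle windows, against 154 of the 1073. The plastome window from base 1 to 100000 had 28, 24 and 30 peaks in PAF1-HA libraries and 19, 34 and 21 in SKIP-HA libraries. Its log2 ratio of shares, PAF1-HA over SKIP-HA, was 0.57 (SE 0.226, limma adjusted p = 0.261). The window from 100001 to 200000 had 22, 19 and 23 peaks in PAF1-HA libraries and 29, 21 and 14 in SKIP-HA libraries. Its log2 ratio was 0.44 (SE 0.268, limma adjusted p = 0.498), with 0.09 (limma adjusted p = 0.919) without SKIP-HA replicate 3 and 0.77 (limma adjusted p = 0.301) without SKIP-HA replicate 1. For the mitogenome, taken as a single window, limma gave 0.29 on the same scale (SE 0.208, adjusted p = 0.580), with 0.13 without PAF1-HA replicate 1 and 0.45 without PAF1-HA replicate 3. In each window the peak numbers of the groups overlapped.

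Set against the nucleus of the same library, peaks covered more of the mitogenome in all 6 libraries and more of the plastome in 5 of 6. Peaks covered 15.8%, 13.0% and 10.6% of the mitogenome in PAF1-HA libraries and 12.9%, 13.0% and 15.7% in SKIP-HA libraries, out of the length up to its last covered base, 15164. On the nuclear chromosomes they covered 5.68% to 6.13% for PAF1-HA, against 6.86% to 8.56% for SKIP-HA. The mitogenome value lay 6.69 percentage points above the nuclear value on average (two-sided exact sign-flip permutation test over 6 libraries, p = 0.031, the smallest possible), at a ratio of 1.68 to 2.79. Plastome coverage was 10.3%, 8.50% and 10.3% in PAF1-HA libraries and 9.52%, 10.9% and 7.12% in SKIP-HA libraries. It lay 2.62 percentage points above the nuclear value on average (same test, exact p = 0.0625), and SKIP-HA replicate 3 was the 1 library below its nuclear value. Between the proteins, covered length differed by less than the spread between libraries on the plastome (9.70% ± 1.04 in PAF1-HA libraries and 9.17% ± 1.89 in SKIP-HA) and on the mitogenome (13.1% ± 2.64 in PAF1-HA libraries and 13.9% ± 1.58 in SKIP-HA, SD, n = 3), with exact permutation p of 0.7 and 1.

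**Figure D1:**
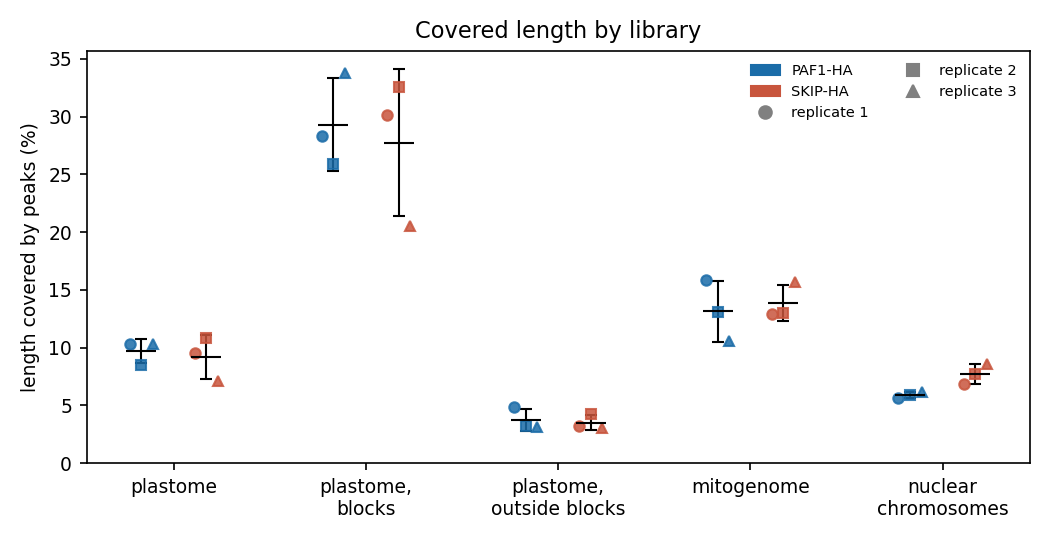
Percent of each sequence covered by peaks (y axis) in 6 libraries, with PAF1-HA in blue and SKIP-HA in red, for the plastome, its peak-dense blocks, the rest of the plastome, the mitogenome and the nuclear chromosomes. Points are libraries, and black lines show the mean and SD over 3 libraries; the blocks were chosen for their density, and the mitogenome values all lie above the nuclear values, which end at 8.56%.

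Plastome peaks were not spread evenly around the circle. When plastome regions at most 2 kb apart were stitched, a pair of long blocks stood out. Block A ran from 32706 to 58036 (25331 bp) and block B from 136540 to 159281 (22742 bp), while the next longest stretch had 3303 bp. The stitching distance was chosen after the data had been examined. Of the 297 plastome peaks, 210 (70.7%) had their centre in a block, though the blocks take up 23.4% of the length up to the last covered base, 205535. Block membership was set by density, so its coverage is a description and carries no test. Blocks were covered to 29.3% ± 4.03 in PAF1-HA libraries and 27.8% ± 6.38 in SKIP-HA libraries, and the rest of the plastome to 3.71% ± 0.964 in PAF1-HA libraries and 3.49% ± 0.646 in SKIP-HA libraries (SD, n = 3). Outside the blocks, the plastome lay below the nuclear coverage of its library in all 6 libraries. Taking out the densest plastome stretches favours this, since the nuclear value kept its own dense stretches.

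The blocks lay almost opposite each other on the circle. Their centres were 102540 bp apart, which is 49.9% of the length. The arc from A to B had 78503 bp and the arc from B across the origin to A had 78959 bp. With 2 kb stitching, peaks thus fell into a pair of dense blocks of similar length and a pair of sparse arcs of nearly equal length. With 1.5 kb the blocks ran from 35738 to 55682 and from 136540 to 155907. With 2.5 kb block B started at 133976 and block A was unchanged, so the arc lengths depend on this distance. An order of repeats between single-copy parts of similar size is known of the plastome. Whether the blocks are the inverted repeats was not tested. Among 4472 nuclear bins of 25 kb, with a median of 4 peaks per library and a maximum of 17.3, the plastome bin from 25001 to 50000 had 12.8, which 0.716% of nuclear bins reached. The bin from 125001 to 150000 had 12.3, which 1.16% of nuclear bins reached. At the other end, the bins from 100001 to 125000 and from 175001 to 200000 had 0.333 and 0.5 peaks per library.

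**Figure D2:**
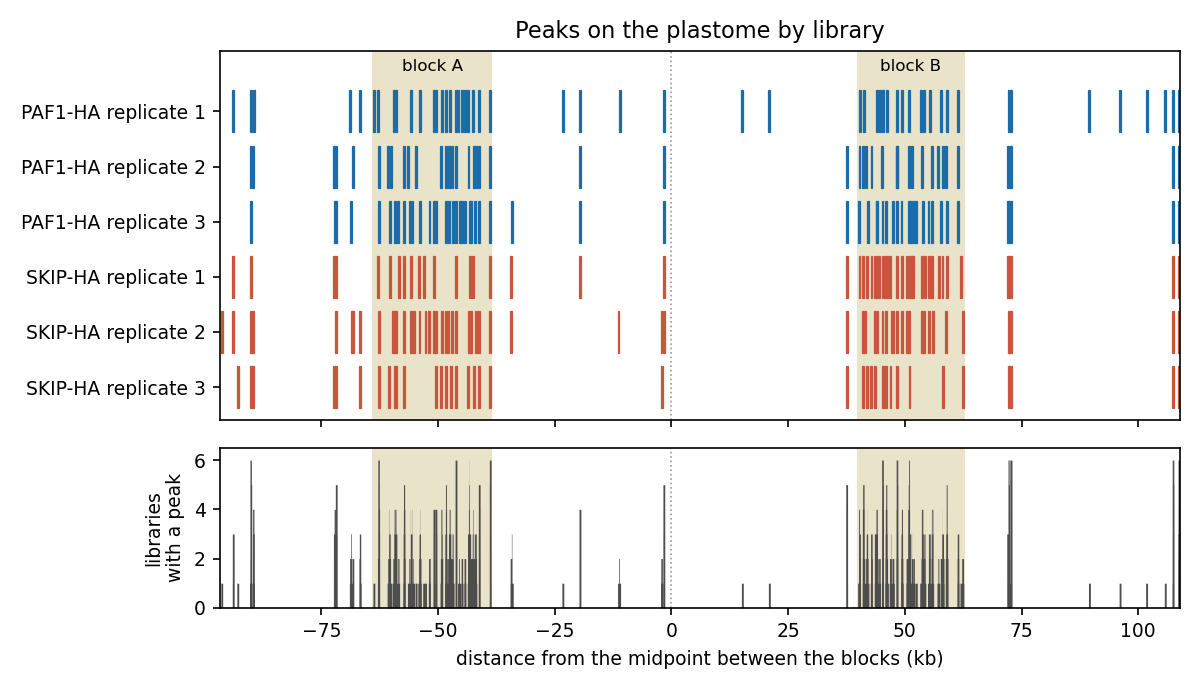
Peaks on the plastome in each library (upper rows, PAF1-HA in blue above SKIP-HA in red) and the number of libraries with a peak (lower panel), against the distance in kb from the midpoint between blocks A and B, which are shaded. In each of the 6 libraries most peaks lie in the shaded blocks, and outside them several sites recur in both groups.

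Both proteins placed a similar part of their plastome peaks in the blocks. In PAF1-HA libraries 64.2%, 71.1% and 76.4% of plastome peaks were in a block, and in SKIP-HA libraries 74.0%, 70.2% and 67.6%, with means of 70.5% ± 6.13 for PAF1-HA and 70.6% ± 3.24 for SKIP-HA (SD, n = 3). Block A held 19, 17 and 23 peaks in PAF1-HA libraries and 12, 22 and 14 in SKIP-HA libraries. Block B held 15, 15 and 19 peaks in PAF1-HA libraries and 25, 18 and 11 in SKIP-HA libraries. All libraries but 1 had 2 to 4 more peaks in A than in B, while SKIP-HA replicate 1 had 13 fewer in A. Inside the blocks, neighbouring peaks of a library had a median distance between centres of 1067 ± 106 bp in PAF1-HA libraries and 1034 ± 140 bp in SKIP-HA libraries (SD, n = 3).

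The arcs differed from each other. The arc across the origin held 13, 10 and 9 peaks in PAF1-HA libraries and 9, 12 and 10 in SKIP-HA libraries, and the arc from A to B held 6, 3 and 4 in PAF1-HA libraries and 4, 5 and 2 in SKIP-HA libraries. In each library the arc across the origin thus had the higher number, though the arcs, at 2 kb stitching, differ in length by less than 1%. Long stretches held no peak in any library. The longest ran from 7333 to 24235 (16903 bp), from 95227 to 111633 (16407 bp), from 169617 to 185982 (16366 bp) and from 117817 to 133975 (16159 bp). Counting only regions found in at least 2 libraries, the peak-free part from 95227 to 133975 reached 38749 bp and that from 169617 to 203863 reached 34247 bp.

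Merging the peaks of all 6 libraries by an overlap of at least 1 bp gave 64 plastome regions, and many of them recurred. Of the 64 regions, 12 (18.8%) had a peak in each of the 6 libraries, against 8.22% of all 37052 regions of the series. A peak in 5 or 6 libraries was found for 26 (40.6%), against 17.3% of nuclear regions. A peak in 1 library only was found for 14 (21.9%), against 35.4% over the series. With a required overlap of at least 200 bp the plastome count was 30, and the series was not counted at that overlap. Merging joins neighbouring peaks into wider regions, so that dense peaks count as recurrent more readily. The widest had 2054 bp, and 5 of the 12 regions in every library held more than 6 peaks. Regions where every library had exactly 1 peak, so that no library's own peaks were joined, numbered 7 (10.9%), against 3.66% of nuclear regions. Peaks of different libraries can still be joined in a chain in regions of this kind. Outside the blocks 4 of 24 regions (16.7%) had a peak in every library.

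The 7 plastome regions with 1 peak in every library are focal sites at which PAF1-HA and SKIP-HA peaks lay on top of each other. The closest was at 50294 to 50705 in block A, where peaks started at 50306, 50303 and 50294 in PAF1-HA libraries and at 50303, 50300 and 50304 in SKIP-HA libraries. All centres there lay within 12 bp, with values of the groups interleaved. At 57617 to 58036, the last region of block A, peaks started at 57637, 57626 and 57618 in PAF1-HA libraries and at 57618, 57617 and 57624 in SKIP-HA libraries, so the centres lay within 20 bp. In block B the region at 141634 to 142079 had centres within 46 bp, and in block A the region at 33664 to 34150 had centres within 87 bp. Centres within 20 bp were found for 2 of these 7 regions, against 9.23% of the 1354 nuclear regions of this kind.

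The other 3 focal sites lay outside the blocks, all in the arc across the origin. At 203864 to 204318 peaks started at 203919, 203900 and 203911 in PAF1-HA libraries and at 203910, 203864 and 203899 in SKIP-HA libraries. At 205085 to 205535 they started at 205085, 205169 and 205089 in PAF1-HA libraries and at 205109, 205170 and 205161 in SKIP-HA libraries. This is the end of the sequence as far as peaks show it. The peaks of all 6 libraries were narrower than 400 bp here, and those of PAF1-HA replicate 2 and SKIP-HA replicates 2 and 3 ended at the same base, 205535. Past the origin, the first covered base of the sequence was 117, in a peak of SKIP-HA replicate 2 alone, at 117 to 516. The focal site at 6262 to 6760 had centres within 99 bp.

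In the remaining 5 regions with a peak in every library, at least 1 library had more than 1 peak. The region at 52914 to 54967 (15 peaks) lay in block A, and those at 137495 to 138943 (10 peaks), 144719 to 145187 (7 peaks) and 146856 to 148840 (13 peaks) lay in block B. The region at 168473 to 169616 lay outside them, and 14 of its 15 peaks fell at 3 neighbouring places. Peaks started at 168473 to 168480 in PAF1-HA replicates 2 and 3 and SKIP-HA replicate 1, at 168739 to 168748 in PAF1-HA replicates 1 and 3 and all 3 SKIP-HA libraries, and at 169196 to 169217 in all 6 libraries, with 1 further PAF1-HA replicate 2 peak at 168943. Of the regions found in 5 libraries, the one at 133976 to 134391, just before block B, lacked PAF1-HA replicate 1 and had starts from 133976 to 133992. The one at 94809 to 95226 lacked SKIP-HA replicate 3 and had starts from 94809 to 94827.

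Inverted repeats that received the same reads would put peaks at mirrored positions, so that paired centres have a common sum. With all 6 libraries, pairs of region centres did not single out such a sum. The best sums, 185329, 188550, 193020 and 202884, each had 12 pairs within 200 bp among the 64 regions, where the median over 550 candidate sums was 3. With 4 sums tied, the pairs are not listed. Common differences, which direct copies would give, also reached 12 pairs. Leaving out SKIP-HA replicate 1 gave a single best mirror sum, 193080, with 15 pairs. A single best one also came without PAF1-HA replicate 2 (193143, 13 pairs) and without PAF1-HA replicate 3 (193080, 13 pairs). Without PAF1-HA replicate 1, SKIP-HA replicate 2 or SKIP-HA replicate 3, ties of 3, 5 and 4 sums remained. Tolerances of 100 bp and 400 bp left ties of 2 and 4 sums, led by 196560 and 188692. The count of libraries along the sequence was also set against its mirror image. The correlation was highest, at r = 0.37, for a sum of positions of 193225, which is close to the sum of the block centres, 193281. Both sums depend on where the dense blocks lie, so their closeness is no separate sign of mirroring. The next mirror sums were 91890 at r = 0.32 and 191895 at r = 0.31. The best value without mirroring was r = 0.27, at a distance of 101255 bp. Distances under 26 kb were left out of that search, while mirror sums were searched around the whole circle. These correlations run over positions that share libraries and blocks, and carry no p.

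The mirror sum of 193225 stayed within 193215 to 193245 when any 1 library was left out, with r between 0.33 and 0.38. Without SKIP-HA replicate 2 the next sum, 191895, came closest, with r = 0.32 against 0.34. After a 2 kb running mean was taken away, r at 193225 was 0.18, and 4 other sums had higher values, up to 0.22 at 202825. As counted, r was 0.15 at a sum -0.501 kb from that of the block centres and 0.27 at 0.499 kb. Further out it rose again, to 0.31 at -1.401 kb and 0.29 at 3.299 kb, so the maximum stood among several raised sums.

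**Figure D3:**
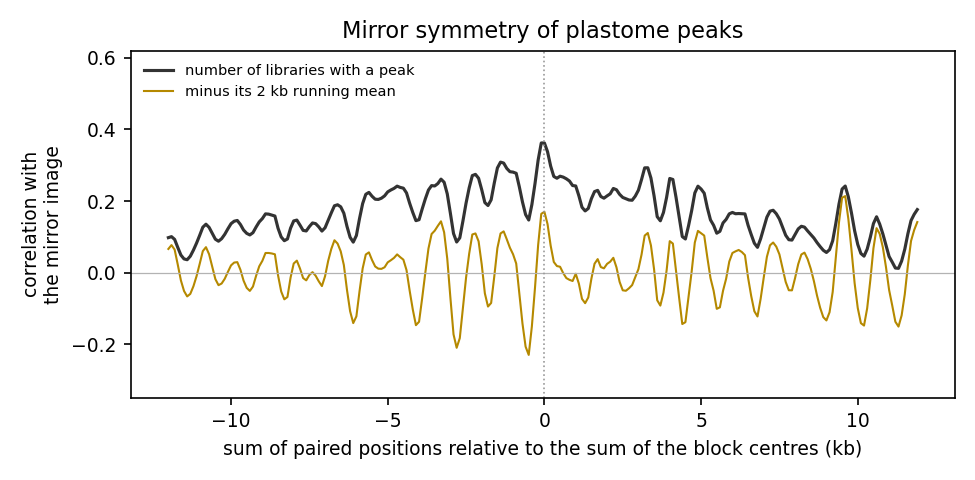
Correlation of the number of libraries with a peak along the plastome with its mirror image (y axis), against the sum of paired positions relative to the sum of the block centres (x axis, kb), for the number of libraries as counted and after a 2 kb running mean was taken away. The dark line, as counted, is highest beside 0, at 0.36, and the ochre line, after subtraction, has a higher peak elsewhere.

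PAF1-HA and SKIP-HA agreed on most plastome regions. Peaks of both groups were found for 44 of 64 regions (68.8%), against 50.5% over the series. PAF1-HA peaks without any SKIP-HA peak were found for 14 regions (21.9%, against 14.3% over the series) and SKIP-HA peaks without any PAF1-HA peak for 6 (9.38%, against 35.3%). Of the 14, PAF1-HA replicate 1 alone gave 8, while on the nuclear chromosomes it alone gave 1126 of 5271. Consensus regions of a group, those found in 2 or 3 of its libraries, numbered 44 for PAF1-HA and 44 for SKIP-HA. Of the PAF1-HA consensus regions 37 (84.1%) overlapped a SKIP-HA consensus region, against 65.8% on the nuclear chromosomes. Of the SKIP-HA consensus regions 37 (84.1%) overlapped a PAF1-HA consensus region, against 51.6% on the nuclear chromosomes. Dense peaks overlap more readily. In the sparse arcs it was 8 of 10 PAF1-HA and 9 of 13 SKIP-HA consensus regions, and in the blocks 29 of 34 PAF1-HA and 28 of 31 SKIP-HA consensus regions. With consensus defined as 3 of 3 libraries, 11 of 23 PAF1-HA regions (47.8%) and 12 of 20 SKIP-HA regions (60.0%) were shared. Nuclear shares were not counted for this setting, for an overlap of 200 bp or without single libraries. Leaving out SKIP-HA replicate 2 took the PAF1-HA value to 47.7%, and leaving out PAF1-HA replicate 3 took the SKIP-HA value to 54.5%, since both remaining libraries were then required.

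In all, 4 PAF1-HA consensus regions met no SKIP-HA peak, and 2 SKIP-HA consensus regions met no PAF1-HA peak. Any SKIP-HA peak was thus met by 90.9% of PAF1-HA consensus regions, close to the 89.4% on the nuclear chromosomes, and any PAF1-HA peak by 95.5% of SKIP-HA consensus regions, against 77.0% on the nuclear chromosomes. Of the 4, 3 followed each other in block A, at 50832 to 51463, 51519 to 52001 and 52169 to 52622, each from PAF1-HA replicates 1 and 3. The other, at 157789 to 158273 in block B, was the 1 plastome region with a peak in all 3 PAF1-HA and no SKIP-HA library, where 0.837% of the regions of the series were of this kind. Its peaks started at 157822, 157789 and 157874. The 1 region with a peak in all 3 SKIP-HA and no PAF1-HA library, a kind that made up 2.49% of the series, followed 192 bp further on, at 158466 to 159281, with starts at 158466, 158816 and 158882. The remaining SKIP-HA consensus region without a PAF1-HA peak lay at 94311 to 94772.

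By the Jaccard index, the shared over the combined covered length of a pair of libraries, plastome pairs of different proteins overlapped those of the same protein. The index was 0.327 ± 0.0419 within PAF1-HA, 0.356 ± 0.0236 within SKIP-HA (SD, n = 3 pairs each) and 0.352 ± 0.0496 between groups (SD, n = 9 pairs). On the nuclear chromosomes it was 0.219 within PAF1-HA, 0.213 within SKIP-HA and 0.193 between groups. Outside the blocks, where peaks were sparse, the plastome index was 0.416 ± 0.182 within PAF1-HA, 0.468 ± 0.0123 within SKIP-HA and 0.457 ± 0.150 between groups. Where plastome peaks of a pair of libraries overlapped, their centres were at a median distance of 73.4 ± 31.9 bp for pairs that join the groups (SD, 9 pairs) and 71.0 ± 33.1 bp for pairs within a group (SD, 6 pairs). This difference is below the spread among pairs. Each library enters several pairs, so the SDs over pairs, also for the Jaccard index, do not measure a spread between independent values. All bases covered in every library came to 1.77% of the plastome and 5.52% of the mitogenome, against 0.521% of the nuclear chromosomes.

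**Figure D4:**
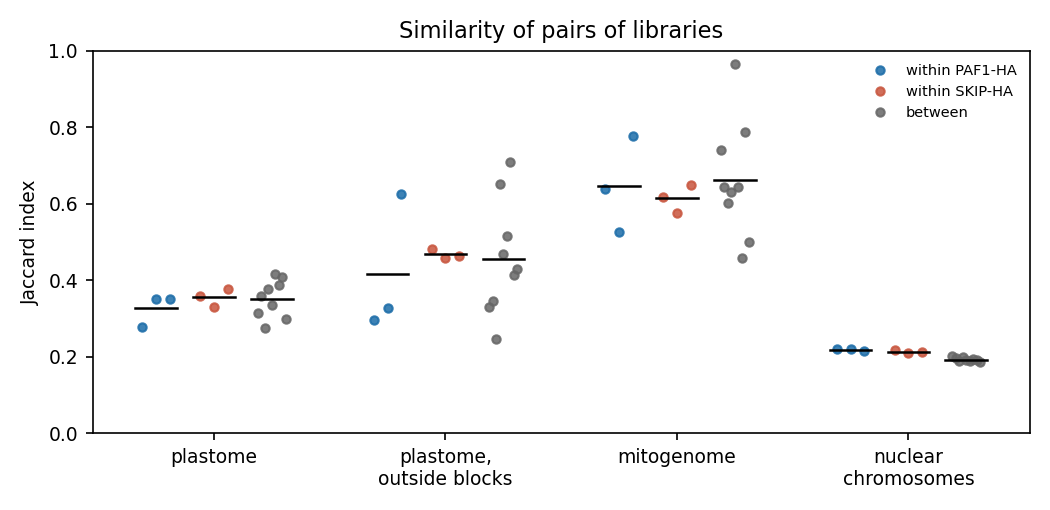
Jaccard index of each pair of libraries (points; y axis, 0 to 1) on the plastome, on the plastome outside the blocks, on the mitogenome and on the nuclear chromosomes, for pairs within PAF1-HA (blue, 3 pairs), within SKIP-HA (red, 3 pairs) and between groups (grey, 9 pairs); lines are means. The 3 kinds of pair overlap on both organelles, with means of 0.327, 0.356 and 0.352 on the plastome.

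The mitogenome held 5 merged regions, and peaks crowded near its left end. Regions 1 and 2, at 388 to 1357 and 1369 to 1946, had 3 peaks in every library, 18 of the 31 mitogenome peaks. The first of these peaks started at 470 in PAF1-HA replicates 1, 2 and 3, and at 472, 470 and 388 in SKIP-HA replicates 1, 2 and 3. In all, 4 libraries thus shared the same first base, and SKIP-HA replicate 3 lay apart from the rest. The second started at 958, 899 and 934 in PAF1-HA libraries and at 857, 920 and 916 in SKIP-HA libraries. The third, which is region 2, started at 1369, 1380 and 1379 in PAF1-HA libraries and at 1376, 1380 and 1547 in SKIP-HA libraries, again with SKIP-HA replicate 3 apart.

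Further along, peaks were fewer, and none of the regions had a peak in every library. Region 3, at 4966 to 5566, had starts at 4966, 5155 and 5155 in PAF1-HA libraries and at 5167 and 5161 in SKIP-HA replicates 2 and 3, while SKIP-HA replicate 1 had no peak there. Region 4, at 6059 to 6529, was found in PAF1-HA replicate 1 and in SKIP-HA replicates 1 and 3, with starts at 6061, 6059 and 6130. The next 8219 bp held no peak in any library. Region 5, at 14749 to 15164, was the last, with starts at 14765 and 14751 in PAF1-HA replicates 1 and 2 and at 14758, 14755 and 14749 in SKIP-HA replicates 1, 2 and 3. PAF1-HA replicate 3 had no peak there. Of its 5 peaks, 4 were 370 to 379 bp wide and ended at 15127 or 15128, and that of PAF1-HA replicate 1 was 400 bp wide and ended at 15164. Whether 15164 is near the end of the molecule, or how far base 388 is from its start repeat, was not analysed here.

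**Figure D5:**
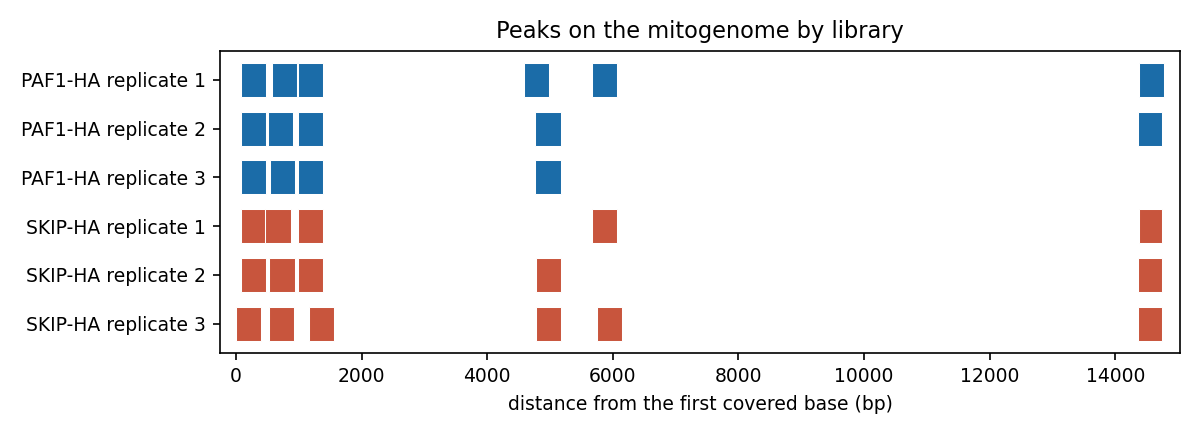
Peaks on the mitogenome in each library (rows, PAF1-HA in blue above SKIP-HA in red), drawn to scale against the distance in bp from the first covered base. Each of the 6 libraries has 3 peaks at the left, and the right-hand peak is missing in PAF1-HA replicate 3.

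All 5 mitogenome regions had peaks of both proteins, where 50.5% of the regions of the series did, and 2 of 5 had a peak in every library, where 8.22% of the series did. Without SKIP-HA replicate 1 the count in every remaining library was 4, without PAF1-HA replicate 3 it was 3, and with an overlap of at least 200 bp it was 3. Neither protein had a region of its own. The Jaccard index was 0.646 ± 0.126 within PAF1-HA, 0.615 ± 0.0367 within SKIP-HA (SD, n = 3 pairs each) and 0.663 ± 0.152 between groups (SD, n = 9 pairs). The most alike pair of all joined the groups, PAF1-HA replicate 2 and SKIP-HA replicate 2, at 0.965. With 4 to 6 peaks per library, a difference between the proteins in single mitogenome positions was not tested.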

How the data were processed

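The members and region lists were chosen with earlier results of these data known. The deposited unit is a genomic interval, the start and end of 1 peak, with 3 columns and no score; each library has its own list. Per the submitters' processing notes, the tools were Bowtie2 and HOMER (listed with all 9 samples) and MACS3 (listed with 4), without roles or versions. The build, calling threshold, control library and the handling of reads that match several places are not given in these sources. The last point bears on repeats, and nothing here tests it.

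Libraries were grouped by title. Scripts used Python 3.11.15 (scipy 1.17.1, numpy 2.4.6, pandas 2.3.3, matplotlib 3.10.9). Peaks that shared at least 1 bp were joined into a region. The plastome was measured up to its last covered base. Values per library were compared by exact permutation tests. Log2 shares of peaks per 100 kb window (0.5 added, mean of at least 5 peaks per library) were fitted with limma 3.58.1 in R 4.3.3, with Benjamini-Hochberg adjustment, and tested on simulated data. Regions named were all mitogenome regions, and plastome regions with a peak in all 6 libraries or in 3 libraries of 1 group only. Other regions, the blocks, bins, arcs and mirror correlation were chosen once the data had been seen. Alternatives are given in the closing section.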

Additional observations from a re-analysis of the deposited data

Results flagged for a closer look

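Over the 6 libraries of both groups, 7 measures were looked at for a library far from the others, and 3 were found. Dixon's ratio of the gap to the whole range was used. Chance passes its limit in about 1 in 20 sets of independent, normally distributed values. Some of these measures are small counts or share the same peaks, so that rate may not hold here. SKIP-HA replicate 3 had plastome coverage 1.44 percentage points below its nuclear coverage (-1.44), where the other libraries lay 2.59 to 4.63 above theirs. It had the fewest plastome peaks, 37, and the longest list, 24680. SKIP-HA replicate 1 had 13 fewer peaks in block A than in block B (-13), 12 against 25, where the others had 2 to 4 more in A. PAF1-HA replicate 1 alone gave 8 of the 14 plastome regions found in a single library, where each other library gave 1 or 2. Of these 8, 7 lay outside the blocks, among 9 such regions there. On the nuclear chromosomes PAF1-HA replicate 1 alone gave 1126 of 13081 single-library regions, the fewest of the 6 libraries.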

How the results depend on the processing

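The replicate numbers gave no pairing (correlations of same-numbered libraries over windows of -0.00248, -0.0331 and 0.000769). With the replicate block, differences stayed 0.0806 percentage points for the plastome share (exact p = 0.25, the smallest 3 pairs allow), 0.00558 for the mitogenome share (exact p = 0.5), 0.532 for plastome and -0.723 for mitogenome covered length (exact p = 0.75 and 1), and 0 organelle windows were called (15 of all 1073 windows, against 6 without the block). Organelle windows stayed uncalled under every alternative run, while limma's calls over all windows ranged from 1 to 12 without single libraries and were 0 with 50 kb windows (244 at an unadjusted p under 0.05). Leaving out 1 library gave plastome share differences of 0.0457 to 0.0985, mitogenome share differences of 0.00201 to 0.00905, plastome covered length differences of -0.489 (without SKIP-HA replicate 3) to 1.38 and mitogenome ones of -2.07 to 0.572 percentage points (above 0 without PAF1-HA replicate 3 and without SKIP-HA replicate 3, at 0.189). With replicates 1 and 2 only, these covered lengths differed by -0.779 and 1.48. Mitogenome coverage above nuclear ranged from 6.0 to 7.14 without single libraries and was 7.14 with replicates 1 and 2, with fewer libraries than the test needs to pass. Plastome coverage minus nuclear turned to -3.21 outside the blocks, a setting that leaves out the densest plastome stretches and keeps the nuclear ones. Leave-one-out gave 2 to 4 mitogenome regions in every library, and consensus overlaps of 47.7% to 90.3% (plastome PAF1-HA), 54.5% to 92.0% (plastome SKIP-HA) and 60.0% to 100% (mitogenome SKIP-HA, which was 80.0% and also 100% with any 1 library required). An overlap of 200 bp gave 69.0% and 64.4% for plastome PAF1-HA and SKIP-HA, and 30 single-library plastome regions; consensus in 3 of 3 gave 47.8% and 60.0%. Mirrored pairs numbered 7 with regions in at least 3 libraries. Stitching at 1.5 kb put 64.3% of plastome peaks in the blocks. Unknown depth limits every absence of a peak.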

Other observations

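Of the peaks narrower than usual, many were on the organelles: 10 of the 28 peaks in the series that were not 400 bp wide lay there, 6 on the plastome and 4 on the mitogenome, while the 117215 nuclear peaks held 6 and contigs held 12. All 18 narrow peaks outside the organelles lay within 100 bp of the first or last covered base of their sequence. The narrow organelle peaks were 2 to 34 bp short of 400 bp and lay at the end of the sequence as covered by peaks.

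Outside the blocks, a pair of recurrent groups of peaks lay at similar distances to either side of the midpoint between the blocks, with positions to its left given as negative. The region at 24236 to 25052, with 9 peaks in 5 libraries, was at -71.8 kb, and the region at 168473 to 169616, with 15 peaks in 6 libraries, at 72.3 kb. This pair was picked after its positions were seen, and no test bears on it.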
